A study of Mus musculus with 10 samples.

Results

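The simple epithelial keratins are the intermediate filament proteins of single-layered epithelia. The genes Krt8, Krt18, Krt7, Krt19, Krt20 and Krt23 were taken by symbol from the table of normalized expression values, and all 6 were found among its 12160 listed genes. Of the 6, 5 had a mean of at least 2 on the log2(RPKM + 1) scale over the 10 libraries, as did 7270 of all listed genes. RPKM is the number of reads scaled by transcript length and by the mapped reads of the library, so levels of different keratins are compared here per length.

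RNA was sequenced by Smart-Seq2, a full-length cDNA method for small inputs, from 100 sorted cells per library. The cells came from the pancreas of 5 mice of the outbred CD-1 stock (the strain field of the labels reads Mixed) with pancreatitis induced by caerulein, a cholecystokinin analogue that injures acinar cells, and no library came from an uninjured pancreas. The tuft group (n = 5) was sorted as Cd45-neg; EpCAM+; Siglec f+ and the non-tuft group (n = 5) as Cd45-neg; EpCAM+; Siglec f-neg, so that both groups share the injury, the epithelial gate and the exclusion of Cd45-positive cells. The tuft group is defined by a surface marker, and the non-tuft group is whatever other EpCAM+ cells the injured pancreas held. Libraries carry the numbers 1 to 5 in each group, and whether a number stands for the same mouse in both groups is not given in the sources used here.

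Keratin filaments are built from equal amounts of a type I and a type II chain. In simple epithelia the usual pair is Krt8 (type II) with Krt18 (type I), and the unpaired chain is degraded. Acinar cells are known to hold mainly this pair, pancreatic ducts add Krt7 (type II) and Krt19 (type I), and tuft cells of several organs are known for dense keratin 18 staining. Krt20 (type I) is best known from intestinal and urothelial surface cells, and Krt23 is a type I keratin whose partner and function are poorly known. After caerulein the paper saw cells of acinar shape positive for both amylase and cytokeratin, with a pan-cytokeratin antibody. Such a stain does not tell the keratins apart, so the levels of Krt7 and Krt19 are not taken here as a measure of ducts.

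In the mm9 build, Krt8 (ENSMUSG00000049382) lies at chr15:101827142-101834773 on the minus strand and Krt18 (ENSMUSG00000023043) at chr15:101858647-101862457 on the plus strand. The partner genes therefore stand head to head, with 23874 bases between their annotated starts and 0 annotated genes lying wholly between them. Krt7 (ENSMUSG00000023039) lies in the same type II cluster at chr15:101241474-101260744 on the plus strand. The other type I genes are on chromosome 11 on the minus strand, Krt19 (ENSMUSG00000020911) at chr11:100002124-100009979, Krt20 (ENSMUSG00000035775) at chr11:99289717-99299464 and Krt23 (ENSMUSG00000006777) at chr11:99339288-99354451. No annotated gene overlapped any of the 6.

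The promoters of the partner pair Krt8 and Krt18, and of Krt7, the other type II keratin, for which the groups overlapped, are shown because the comparisons below turn on these genes. Each runs 5′ to 3′ from 250 bases before to 50 bases after the RefSeq start site. The sequences are those of the RefSeq promoter table (GRCm38.p6), which held 5 of the 6 keratins (not Krt19), and were placed in mm9 by exact match. Krt8 is at chr15:101834724-101835023 on the minus strand, Krt18 at chr15:101858397-101858696 on the plus strand and Krt7 at chr15:101242584-101242883 on the plus strand, where the RefSeq start lies 1360 bases inside the gene model given above. Capitals mark matches to TATAAA, the core of a TATA box, in Krt8 (overlapping matches on both strands). These begin at -3 and -1 from the RefSeq start site and so run across it. In Krt7 capitals mark matches to GGGCGG on either strand, the core of a GC box.
Krt8: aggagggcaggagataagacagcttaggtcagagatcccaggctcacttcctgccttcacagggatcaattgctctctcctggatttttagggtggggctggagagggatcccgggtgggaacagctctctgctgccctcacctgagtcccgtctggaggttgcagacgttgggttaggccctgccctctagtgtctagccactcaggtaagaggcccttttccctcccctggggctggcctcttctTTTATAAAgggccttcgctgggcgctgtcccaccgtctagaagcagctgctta
Krt18: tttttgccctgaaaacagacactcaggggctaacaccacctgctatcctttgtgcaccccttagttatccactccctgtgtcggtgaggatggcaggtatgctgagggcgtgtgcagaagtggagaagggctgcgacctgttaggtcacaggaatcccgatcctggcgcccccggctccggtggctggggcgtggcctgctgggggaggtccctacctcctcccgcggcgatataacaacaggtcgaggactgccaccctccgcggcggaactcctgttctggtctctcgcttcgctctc
Krt7: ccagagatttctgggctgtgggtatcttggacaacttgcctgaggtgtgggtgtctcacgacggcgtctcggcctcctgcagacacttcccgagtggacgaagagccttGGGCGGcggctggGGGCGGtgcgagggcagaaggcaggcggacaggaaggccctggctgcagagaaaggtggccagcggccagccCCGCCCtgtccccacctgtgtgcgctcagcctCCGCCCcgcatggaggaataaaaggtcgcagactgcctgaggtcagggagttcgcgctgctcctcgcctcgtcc

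The promoter of Krt8 had 58.0% G and C, that of Krt18 61.3% and that of Krt7 66.3%, against a median of 52.7% over the 32851 promoters of the table. TATAAA was present on either strand in Krt8, across the start site, and in Krt20, at -29 from it, and in 13.6% of all promoters. GGGCGG was present in Krt7 alone of the 5, with 4 matches, and in 35.7% of all promoters. ATGCAAAT, the octamer bound by POU factors (the class of the tuft cell regulator Pou2f3), was in none of the 5 and in 1.74% of all promoters. These are matches of letters in a window and no measure of binding.

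The question was how the level and the make-up of the simple keratins differed between sorted tuft cells and the remaining epithelium. Krt8 and Krt18 were each more than 10-fold higher in tuft cells, with no overlap between the groups. Krt7 and Krt19, the keratins of ducts, did not pass the test, nor did Krt23 and Krt20. Thus 2 of 6 keratins passed an adjusted p under 0.05 (moderated test of limma, Benjamini-Hochberg adjustment over all genes), as did 11.7% of all listed genes. Both were higher in tuft cells and 0 were lower, against 6.19% and 5.55% of all genes. Both also had a fold over 4, as did 4.32% of all genes in that direction, and both were without overlap between the groups, as were 11.4% of all genes in either direction. The median log2 difference between the groups was 0.02 over all listed genes. In libraries of pooled cells, fewer cells of a type and less RNA per cell cannot be told apart.

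Krt8, the type II chain of the main pair, read 7.41, 7.85, 8.63, 8.81 and 9.63 on the log2(RPKM + 1) scale in non-tuft libraries 1 to 5, and 10.68, 10.64, 13.27, 11.66 and 12.86 in tuft libraries 1 to 5. Every tuft library was above every non-tuft library, with tuft libraries 3 and 5 the highest and non-tuft library 5 nearest to the tuft group. The means were 8.47 ± 0.86 (SD, n = 5) and 11.82 ± 1.21 (SD, n = 5). The log2 fold change was 3.36 (SE 0.61, 95% interval 2.03 to 4.68), or 10.2-fold, with an adjusted p of 0.00316 and an exact two-sided permutation p of 0.00794, the smallest that 5 libraries against 5 allow.

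Krt18, its type I partner, read 8.77, 8.33, 9.67, 9.18 and 10.28 in the non-tuft libraries and 11.75, 12.53, 13.83, 12.73 and 13.83 in the tuft libraries, on the same log2 scale. The groups again did not overlap, and the same libraries were highest, numbers 3 and 5 among the tuft and number 5 among the non-tuft libraries. The means were 9.25 ± 0.76 and 12.94 ± 0.90 (SD, n = 5 each). The log2 fold change was 3.69 (SE 0.52, 95% interval 2.56 to 4.82), or 12.9-fold, with an adjusted p of 5.77e-04 and an exact permutation p of 0.00794.

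Within each library Krt18 was among the most abundant messages per length. In the tuft libraries it ranked 4 to 22 of the 12160 genes (median 10), and in the non-tuft libraries 44 to 175 (median 87). It held rank 4 in both tuft libraries 3 and 5, and since quantile normalization gives equal ranks equal values, its level in them was the same. Krt8 ranked 7 to 37 in tuft libraries (median 23) and 60 to 350 in non-tuft libraries (median 138).

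Krt7, the type II keratin of ducts, read 5.32, 3.81, 5.14, 5.01 and 5.74 in the non-tuft libraries and 3.66, 4.19, 5.67, 5.35 and 5.39 in the tuft libraries. Within the tuft group the libraries stood in the same order for Krt7 as for Krt18, with numbers 3 and 5 highest. The ranges of the groups lay almost on top of each other, and the lowest and the highest library differed by about the same amount in both groups. The log2 fold change was -0.15 (SE 0.51, adjusted p = 0.891), and its 95% interval of -1.25 to 0.95 leaves out changes of the size seen for Krt8. With libraries centred on ribosomal protein genes the log2 fold change of Krt7 was 0.65 and did not pass (adjusted p = 0.482). The median over all genes in that setting was 0.82.

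Krt19, the type I keratin most used as a marker of ducts, read 3.57, 3.91, 6.23, 6.72 and 7.12 in the non-tuft libraries and 4.59, 4.76, 3.96, 6.68 and 1.39 in the tuft libraries. It varied widely within both groups, and the groups overlapped. The highest tuft value, in library 4, lay within the upper non-tuft values, while tuft library 5, among the highest for Krt8 and Krt18, had the lowest Krt19 of all 10. The log2 fold change was -1.23 (SE 0.94, 95% interval -3.26 to 0.80, adjusted p = 0.465). It was -0.51 without tuft library 5, -1.83 without tuft library 4 and -0.43 when libraries were centred on ribosomal protein genes, and it passed in none of these.

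Krt23 read 5.90, 2.51, 4.03, 6.19 and 4.53 in the non-tuft libraries and 5.72, 6.46, 6.83, 6.77 and 6.33 in the tuft libraries. The tuft values were close together (SD 0.44) and the non-tuft values spread (SD 1.49), and non-tuft libraries 1 and 4 lay above the lowest tuft library. The log2 fold change was 1.79 (SE 0.63, 95% interval 0.42 to 3.16) with an adjusted p of 0.0907, so Krt23 missed the threshold. Its exact permutation p was 0.0317, which is not adjusted over the keratins. By the moderated test Krt23 passed without non-tuft library 4 (log2 fold change 2.18, adjusted p = 0.0430). It also passed when libraries were centred on ribosomal protein genes (2.59, adjusted p = 0.0212), which raised the median over all genes to 0.82. In the other 14 settings of the fit Krt23 did not pass, with 1.26 (adjusted p = 0.154) when non-tuft library 2 was left out.

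Krt20 was listed at 0 in all 5 tuft libraries and in non-tuft libraries 1, 3 and 5, and read 1.70 in non-tuft library 2 and 2.82 in non-tuft library 4. It was thus above the floor in 2 of 5 non-tuft and 0 of 5 tuft libraries, and the difference did not pass (adjusted p = 0.347). The files hold no counts, so a value of 0 sets no upper limit on its level, and no fold is given.

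**Figure D1:**
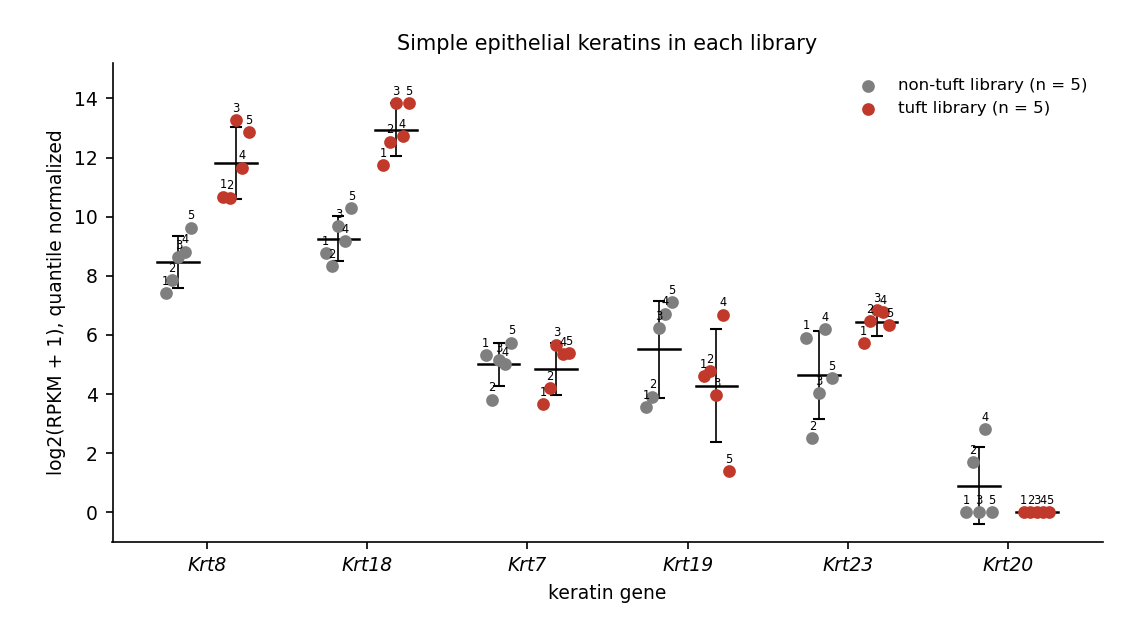
Expression of the 6 simple epithelial keratins as log2(RPKM + 1) after quantile normalization (y axis), for each gene (x axis) in non-tuft (grey) and tuft (red) libraries; points are libraries with their numbers, lines the mean and bars the SD (n = 5 each). For Krt8 and Krt18 every red point lies above every grey point, Krt7 and Krt19 overlap, and Krt20 is at 0 in the 5 tuft libraries.

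The order of the keratins by mean log2 level differed between the groups below the main pair. In non-tuft cells it ran Krt18, Krt8, Krt19, Krt7, Krt23 and Krt20. Krt18 was above Krt8 in 5 of 5 libraries and Krt8 above Krt19 in 5 of 5, while Krt19, Krt7 and Krt23 were not kept apart (Krt19 above Krt7 in 4 of 5, Krt7 above Krt23 in 3 of 5). In tuft cells it ran Krt18, Krt8, Krt23, Krt7, Krt19 and Krt20. Here Krt18 was above Krt8, Krt8 above Krt23 and Krt23 above Krt7 in 5 of 5 libraries each, and Krt7 was above Krt19 in 2 of 5.

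The partner genes were then compared within each library. The log2 value of Krt8 minus that of Krt18 in the same library was -1.37, -0.48, -1.04, -0.36 and -0.65 in non-tuft cells and -1.07, -1.89, -0.56, -1.07 and -0.98 in tuft cells. Krt18 was the higher of the pair in all 10 libraries, and the groups overlapped. The means differed by -0.33 (95% interval by inversion of the exact permutation test, -1.01 to 0.39; exact permutation p = 0.278, 0.347 after adjustment over 5 pairs), so a shift of up to about -1.01 between the partners cannot be told from none with 5 libraries.

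Against the chains of the same type, the main pair changed by more. Krt7 minus Krt8, both type II, was -2.09, -4.05, -3.50, -3.80 and -3.89 in non-tuft libraries and -7.02, -6.45, -7.61, -6.31 and -7.46 in tuft libraries. All 5 tuft values were below all non-tuft values, by -3.51 on average (interval -4.55 to -2.52, exact permutation p = 0.00794, adjusted 0.0132). With same-numbered libraries taken as pairs, exact sign flips of the 5 paired differences gave p = 0.0625, the smallest they allow.

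Krt19 minus Krt18, both type I, was -5.21, -4.42, -3.45, -2.46 and -3.16 in non-tuft libraries and -7.16, -7.77, -9.87, -6.04 and -12.44 in tuft libraries. The groups did not overlap, and tuft library 5 stood lowest. The mean difference was -4.92 (interval -8.02 to -2.28, exact permutation p = 0.00794, adjusted 0.0132). By exact sign flips of same-numbered libraries p was again 0.0625. Krt20 minus Krt18 counts among the 5 pairs in the adjustment. Its value is given only with the settings of the processing below, and no conclusion is drawn from it. Krt20 stood at 0 in all tuft libraries, so the difference there restates Krt18. Krt7 minus Krt19, the keratins of ducts, had means of -0.50 in non-tuft and 0.57 in tuft libraries, and the difference did not pass (difference 1.08, interval -1.57 to 4.10, exact permutation p = 0.397, adjusted 0.397). A constant added to all log2 values of a library moves both genes of a pair alike, so the differences among Krt8, Krt18, Krt7 and Krt19, which were above the floor in all 10 libraries, do not depend on such centring.

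**Figure D2:**
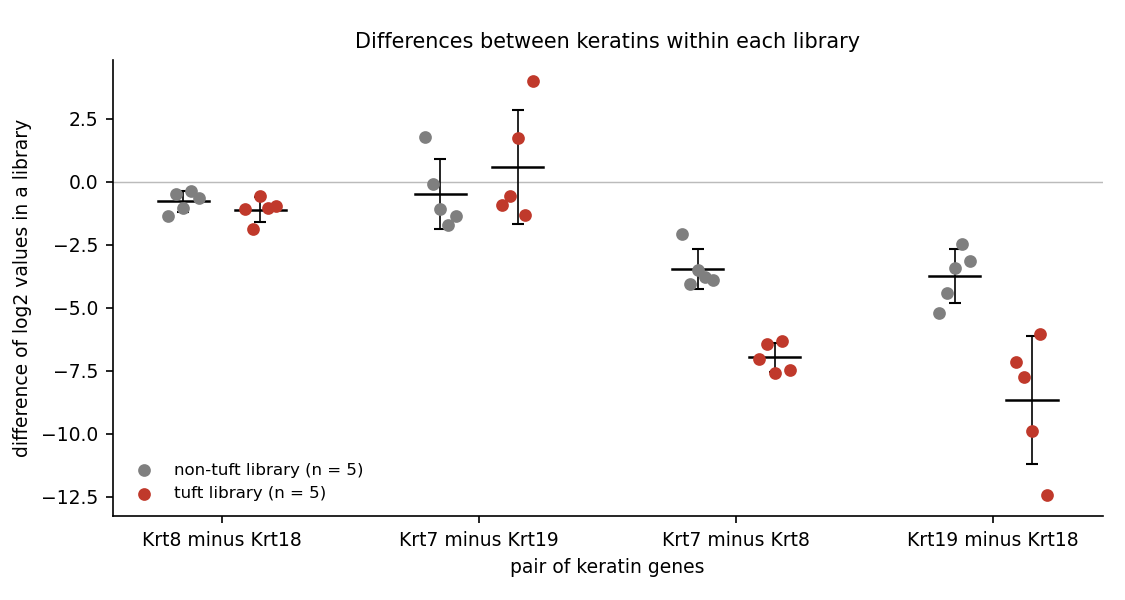
Differences between the log2(RPKM + 1) values of keratin genes in the same library (y axis), for 4 pairs (x axis), in non-tuft (grey) and tuft (red) libraries; lines are means and bars SD (n = 5 each). Krt8 minus Krt18 overlaps between the groups, while for Krt7 minus Krt8 and Krt19 minus Krt18 all red points lie below all grey points.

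Summed on the linear RPKM scale, the 6 keratins reached 714, 585, 1335, 1239 and 2244 in the non-tuft libraries and 5173, 7653, 24688, 10271 and 22135 in the tuft libraries. The sum was higher in every tuft library, and it was made up almost wholly of the main pair. Without Krt8 and Krt18, the sum was 109, 34.0, 123, 214 and 212 in the non-tuft libraries and 86.5, 131, 177, 250 and 122 in the tuft libraries. These ranges overlapped, with means of 138 ± 76.0 and 153 ± 62.9 (SD, n = 5 each). The sums and shares follow from the levels above and are given as a description with no test.

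As shares of the sum, Krt8 and Krt18 together made up 82.8% to 94.2% of the non-tuft pool and 97.6% to 99.4% of the tuft pool. Krt8 took 32.8% ± 6.20 of the non-tuft and 31.5% ± 6.93 of the tuft pool, and Krt18 took 55.8% ± 5.97 and 67.0% ± 6.58 (SD, n = 5 each), both with overlapping ranges. Krt19 made up 4.80% ± 2.82 of the non-tuft and 0.370% ± 0.394 of the tuft pool, and Krt7 3.02% ± 1.37 and 0.245% ± 0.0812, both without overlap between the groups. Krt23 made up 3.40% ± 3.42 and 0.801% ± 0.364, with overlap, and Krt20 reached 0.488% in non-tuft library 4. The log2 ratio of summed type II to summed type I chains was -0.85 ± 0.32 in non-tuft and -1.13 ± 0.49 in tuft libraries, with overlapping ranges. On these sums, mostly Krt8 and Krt18, type I message exceeded type II message per length in all 10 libraries. The sign depends on the measure. The mean log2 value of type II minus that of type I was 0.69 to 2.20 in non-tuft and 1.48 to 3.73 in tuft libraries.

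**Figure D3:**
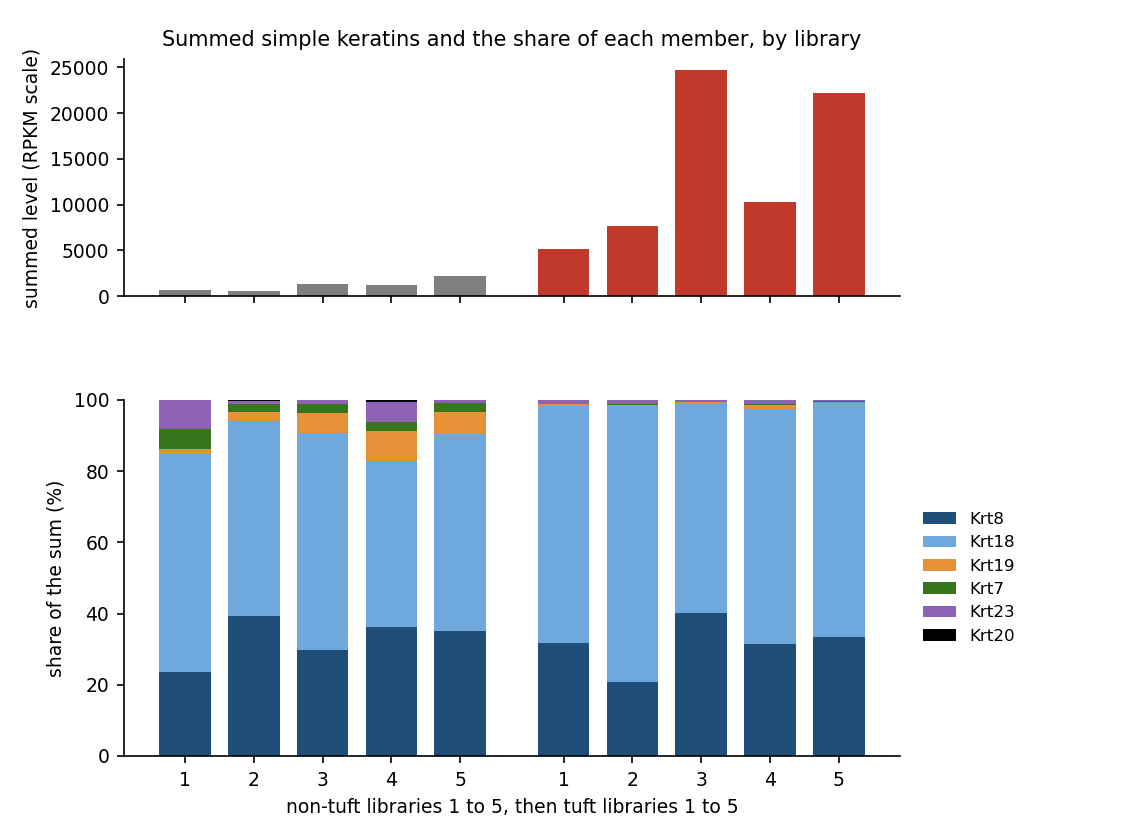
Top, summed level of the 6 keratins on the linear RPKM scale (y axis) in non-tuft (grey) and tuft (red) libraries 1 to 5; bottom, the percentage of that sum taken by each keratin (y axis, stacked bars). The tuft sums run from 5173 to 24688 against 585 to 2244, and the ductal keratins Krt19 and Krt7 shrink from visible bands in the non-tuft bars to thin lines in the tuft bars.

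Marker genes of the cell types that the gates could hold were read in the same libraries, and the counts of each list stand against 6.19% of all genes higher and 5.55% lower in tuft cells. All 19 listed tuft markers were higher in the tuft libraries, and of 19 acinar markers 16 were lower and 0 higher. Summed on the linear scale, acinar markers ran from 79540 to 117730 in the non-tuft libraries and from 800 to 72396 in the tuft libraries. Tuft library 4 had the highest acinar sum of its group and the highest Krt19, and tuft library 5 the lowest of both. Tuft libraries 3 and 5, highest for Krt8 and Krt18, had the lowest acinar sums (7779 and 800) and the highest tuft marker sums (10569 and 13018). Without tuft library 4 the log2 fold change was 3.40 for Krt8 (adjusted p = 0.00966) and 3.74 for Krt18 (adjusted p = 0.00222).

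Of 24 ductal markers 4 were higher and 5 lower in tuft cells. Sox9, a duct regulator that tuft cells also use, read 7.26 in non-tuft and 7.77 in tuft libraries (adjusted p = 0.451). Spp1 fell by 4.55 on the log2 scale (adjusted p = 0.00413), and Ambp had -5.17 (adjusted p = 0.00117). In the other direction, Tspan8 rose by 3.02 (adjusted p = 0.00212) and Anxa4 by 1.88 (adjusted p = 0.00681). Krt7 and Krt19 did not pass beside these. Of 10 islet markers 4 were lower and 0 higher, and their sum reached 21803 in non-tuft library 1, which had the lowest Krt8 and Krt19 of its group.

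Of 9 listed leukocyte markers 1 was higher in tuft cells, Ptprc (Cd45), at 2.74 to 4.33 against 0 to 1.93 on the log2 scale, and their summed linear level was 20.5 to 84.0 in tuft and 8.77 to 147 in non-tuft libraries. Of 9 fibroblast and endothelial markers 1 was higher, Tek, a receptor tyrosine kinase (log2 fold change 5.65, adjusted p = 3.50e-06). The sum of these markers was 22.6 to 319 in tuft and 0.443 to 754 in non-tuft libraries. In the tuft libraries other than library 5 that sum was Tek alone, with every other marker of the list at 0. The highest sum of each group was in library 5, among the highest for Krt8 and Krt18. Of 2 mesothelial markers, which belong to cells that also carry simple keratins, Upk1b was higher (log2 fold change 3.29, adjusted p = 0.00549) and Msln was not (log2 fold change 0.34, adjusted p = 0.910). The part of these other cells in the keratin levels was not tested. Epcam, on which both groups were sorted, read 8.10 in non-tuft and 9.82 in tuft libraries (adjusted p = 0.0329).

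Among the neighbours of the Krt8 and Krt18 genes within 100 kb, 3 of 6 were listed. Krt79, a keratin of the hair follicle, had a log2 fold change of 1.11 (adjusted p = 0.397), Spryd3 -0.10 (adjusted p = 0.913), and Eif4b, a translation initiation factor, fell by 1.67 (adjusted p = 0.00723). Neither of the other 2 listed neighbours passed in the direction of the pair.

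The transcripts of the main pair have near copies elsewhere in the genome. That of Krt8 (1805 bases) matched 1 other place, chr7:24142113-24143830 inside the gene model of Nlrp4e, over 96.0% of its length at 97.9% identity. That of Krt18 (1400 bases) matched 1 place outside any annotated gene, chr13:118246579-118247933, over 98.9% of its length at 90.5% identity. How reads matching both places were counted is not given in the sources used here, so the absolute levels of this pair are less certain than those of Krt7, Krt19, Krt20 and Krt23, for which 0 such places were found. The order of Krt18 above Krt8 and the ratio of summed type II to type I chains rest on these levels and share that limit.

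The genes whose pattern over the 10 libraries was most like each keratin were ranked by the root mean square difference of centred log2 values among 7269 other genes. Each gene was centred on its mean over all 10 libraries, so a like difference between the groups by itself brings genes near each other. For Krt8 the nearest gene was Krt18 and for Krt18 the nearest was Krt8, at a difference of 0.44 on the log2 scale. After the partner came Kdm4a (0.50), a histone demethylase, and Aldh2 (0.54), the mitochondrial aldehyde dehydrogenase, for Krt8, and Aldh2 (0.47) and Clec4a1 (0.49) for Krt18. The log2 fold changes of Kdm4a, Aldh2 and Clec4a1 were 2.96, 3.89 and 4.15. For Krt7 they were Prkag1 (0.24), Dcps (0.29) and Tpi1 (0.30), none of which passed the test between the groups. For Krt23 they were Klf6 (0.47), Ngef (0.53) and Alkbh6 (0.55). No gene came as near to Krt19, for which the closest were the stress factor Atf3 (0.89), the acinar injury product Reg1 (0.96) and Ahnak (0.97).

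Of the other keratins, 6 were listed, and 0 were higher and 0 lower in tuft cells (median log2 fold change 0.26, range -1.70 to 1.57). Krt17, a keratin of basal and wounded epithelia, was listed at 0 in all tuft libraries and read 5.48 in non-tuft library 4 and 3.02 in non-tuft library 2, the same libraries in which Krt20 was above the floor. Krt10, a keratin of differentiated epidermis, averaged 2.25 in non-tuft and 2.46 in tuft libraries (adjusted p = 0.891). Krt222, at the floor throughout the non-tuft group, reached 3.42 in tuft library 1 (adjusted p = 0.128).

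Desmosomes and cytolinkers tie keratin filaments to the membrane and to each other. Of 20 listed genes of this kind, 3 were higher in tuft cells and 0 lower (median log2 fold change 0.07), where 6.19% of all genes were higher and 5.55% lower. Eppk1 (epiplakin), which binds simple keratin bundles, rose from 0.26 to 3.37 in non-tuft to 5.36 to 6.15 in tuft libraries (log2 fold change 3.63, SE 0.54, adjusted p = 8.80e-04). Pkp1 (plakophilin 1, log2 fold change 2.99, adjusted p = 0.00820) was at the floor in 4 of 5 non-tuft libraries, with 3.02 in the fifth, and Dsp (desmoplakin, which anchors the filaments) rose by 1.54 (adjusted p = 0.0151). Dsc2 (desmocollin 2) had 1.27 and missed the threshold (adjusted p = 0.0568).

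Of 10 listed genes for other intermediate filament proteins, 2 were higher and 1 lower (median log2 fold change -0.72), beside the same 6.19% and 5.55% of all genes. Bfsp1, a filament protein best known from the lens, was above the floor in none of the 5 non-tuft libraries, while it read 1.73 to 4.94 in tuft libraries (adjusted p = 0.00104), and Lmnb2, a nuclear lamin, rose by 2.00 (adjusted p = 0.0200). Nes (nestin) fell by 2.29 (adjusted p = 0.00336). Vim, the filament of mesenchymal cells, had -2.73 with an adjusted p of 0.0931.

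Of 22 listed genes for proteins that chaperone or modify keratins, 3 were lower in tuft cells (median log2 fold change 0.20), as were 5.55% of all genes. The 3 lower genes encode small heat shock proteins, Cryab with -3.11 (adjusted p = 0.0158), Hspb8 with -3.09 (adjusted p = 0.0270) and Hspb1 with -2.67 (adjusted p = 0.0396), and Hspa8, a constitutive chaperone, had 0.14 (adjusted p = 0.888).

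Of 21 listed epithelial transcription regulators, 4 were higher and 0 lower (median log2 fold change 0.28), against 6.19% and 5.55% of all genes. Klf4, a zinc finger factor of barrier epithelia, rose by 3.33 (adjusted p = 0.00804), Ehf by 1.27 (adjusted p = 0.0369) and Hnf4a by 2.03 (adjusted p = 0.0496). Cdx1, an intestinal homeobox gene, was likewise at the floor throughout the non-tuft group, while it read 1.26 to 4.19 in tuft libraries (adjusted p = 0.00977).

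**Figure D4:**
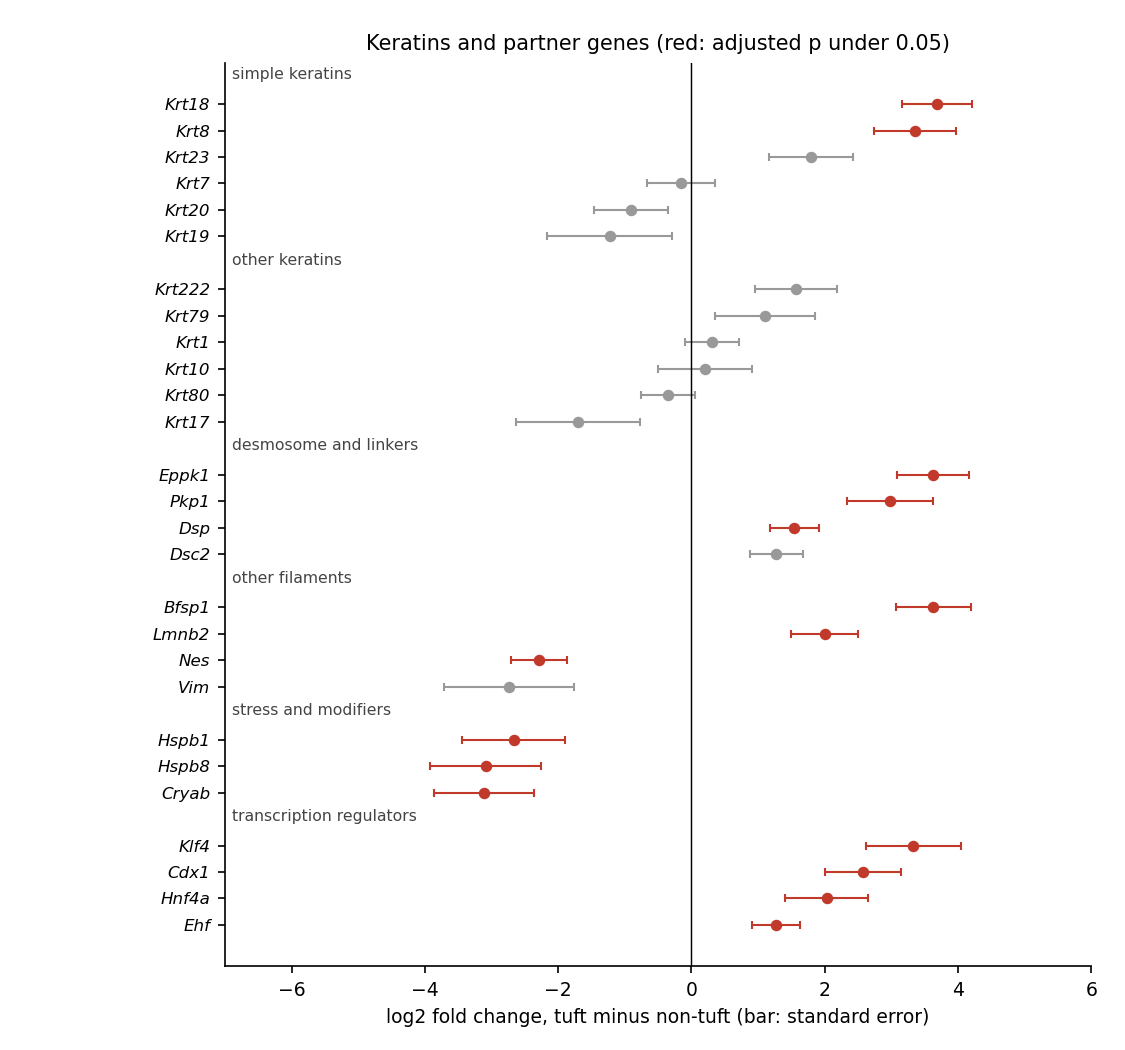
Log2 fold change of tuft minus non-tuft libraries (x axis) with its standard error (bars) for the 6 simple keratins, 6 other keratins and 3 or 4 genes with the smallest p of each of 4 lists of related genes; red marks an adjusted p under 0.05. Krt18 and Krt8 lie at 3.69 and 3.36, and none of the other 10 keratins is red.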

How the data were processed

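Gene expression was measured by Smart-Seq2 in 10 libraries. The authors mapped the reads to mm9 with HISAT2, computed RPKM per gene with StringTie and Ballgown, removed genes whose RPKM varied little across samples, and deposited log2(RPKM + 1) values after quantile normalization. The deposited fold ratio, p-value and false discovery rate columns hold the authors' own comparison and were not used here. Counts were not used here, so depth is unknown. Because 1 was added before the logarithm, fold changes of low genes are understated.

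Groups were compared with limma 3.58.1 in R 4.3.3 (lmFit and eBayes, no covariates) over all 12160 genes with Benjamini-Hochberg adjustment. Single values were compared by exact two-sided permutation of the library labels over all 252 splits. The permutation code was compared with that of scipy 1.17.1 on random values. The fit was tested on simulated data. Linear values are 2 to the log2 value, minus 1. A gene at the floor has its library's lowest value (0.169 in non-tuft library 2, otherwise 0). Copies were sought with blastn 2.17.0 (at least 90% identity over at least 50% of the transcript).

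The keratins and the 11 gene lists were chosen with earlier results of these data known. The genes named were the keratins, other keratins above the floor in at least 3 libraries, the 4 genes of each list with the smallest p, defining markers and the 3 genes most like each keratin with a mean of at least 2; Hspa8 and the chromosome neighbours were named after their values were seen. Of the list of keratin chaperones and modifiers, 1 gene is not reported here. The labels name 5 biological replicates for each cell type. Both groups were sorted from 5 mice and each tuft library came from 1 mouse, so libraries of different groups share animals. The unpaired tests treat the 10 libraries as independent. The highest Pearson r between libraries was 0.913. Alternatives were the replicate number as a block, 0.1 or 10 added in place of 1, a filter on low values, centring on the mean of 80 genes for ribosomal proteins, robust eBayes with a trend, an adjusted p under 0.01, and leaving out each library.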

Additional observations from a re-analysis of the deposited data

Results flagged for a closer look

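Of 34 groups of 5 libraries checked for a library far from the rest, 3 had one, and chance alone gives about 1 in 20. Krt7 minus Krt8 was highest in non-tuft library 1, at -2.09 against -4.05 to -3.50 in the other non-tuft libraries. The share of Krt7 in the keratin sum was highest in the same library, at 5.45%, and highest among tuft cells in library 4, at 0.387%. In non-tuft library 1 the lowest Krt8 of the study stood beside a Krt7 level within the range of its group, and the islet marker sum was 21803.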

How the results depend on the processing

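Krt8 and Krt18 stayed higher in tuft cells with an adjusted p under 0.05 under every setting of the fit that was run, and with each library left out in turn (log2 fold change 2.99 to 3.65 and 3.46 to 3.99). With centring on ribosomal protein genes the median over all genes went from a log2 fold change of 0.02 to one of 0.82 and the calls from 1428 (52.7% higher) to 2528 (88.4% higher). Under it Krt7 reversed to 0.65 and Krt23 passed with 2.59. With each library left out, Krt7 ran from -0.45 to 0.15, reversing without non-tuft library 5 and without tuft libraries 1 or 2, and Krt23 from 1.26 to 2.18, passing without non-tuft library 4. The difference in the type II to type I ratio was -0.28 on sums and 0.77 on means of log2 values, in which Krt20 at 0 weighs as much as Krt18.

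Libraries with the same number deviated together with r of 0.06 to 0.24, over 0.1 in 3 of 5 pairs. Of the 10 libraries, 7 correlated best with their own number. These values do not settle whether a number marks the same mouse. The main tests were left unpaired, and the replicate block and the sign flips are given beside them. The replicate block gave 1406 calls and changed no keratin's call. By exact sign flips of the 5 numbered pairs, the differences of -3.51 (Krt7 minus Krt8), -4.92 (Krt19 minus Krt18) and -4.59 (Krt20 minus Krt18) had p = 0.0625, the smallest possible. The last of these rests on Krt20 at 0 in 8 of 10 libraries and ran from -5.79 to -3.86 with 0.1 or 10 added in place of 1. No conclusion is drawn from it, since Krt20 stood at 0 in all tuft libraries and the difference there restates Krt18. The filter on low values leaves out Krt20. With no counts, the precision of low values such as those of Krt20 and Krt17 cannot be given.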
